A study of Mus musculus with 9 samples.

Results

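Gene expression in F1 hybrid beige adipocytes was set against the mean of both parental strains, gene by gene, to see where the hybrid lay between its parents, at one of them, or outside both. The parents were C57BL/6J mice (B6), called prone to obesity in the series, and 129X1/SvJ mice (129), called resistant. Stromal vascular cells of inguinal fat, the precursors of subcutaneous fat cells, were turned into beige adipocytes in culture, with the same medium in all groups. For the first 48 hours they received 1 µM rosiglitazone (a PPARγ agonist), 1 µM dexamethasone (a glucocorticoid), 850 nM insulin and 1 nM T3 (a thyroid hormone), together with isobutylmethylxanthine at 0.5 mM, indomethacin at 125 nM and 10% serum. Serum, insulin, T3 and rosiglitazone were kept on afterwards. Poly(A) RNA was sequenced at day 7 from 3 libraries of each group, and all 9 libraries were used. The values were RPKM, read numbers scaled to gene length and library depth. Of 24013 gene symbols, the 11542 with an RPKM of at least 1 in at least 3 libraries were tested. Values after ± are SDs over the 3 libraries of a group, and coordinates are those of mm9 unless another build is named.

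A hybrid carries 1 genome copy from each parental strain. If each copy is read out as in its parent, the hybrid RNA level lies at the mean of the parents, which is called additive. Levels that equal one parent are called dominant, and levels above or below both are called transgressive. Beige adipocytes are fat cells of subcutaneous depots that can express the uncoupling protein UCP1 and burn fuel as heat, and they form from precursors that can also become white adipocytes.

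The mean of the parents depends on the scale. On RPKM it is the arithmetic mean, the level that an equal mixture of both parental RNAs would have. On log2(RPKM + 1) it is close to the geometric mean, which is lower, and the added 1 shrinks the fold changes of scarce transcripts. Both were used, and the log2 mean is called the mid-parent level below. The comparisons of F1 with B6, with 129 and with the mid-parent level share the F1 libraries, so their calls are not independent. Neither the mother's strain nor the use of separate animals for the libraries of a group is stated. All p-values therefore rest on the spread between libraries, which may be technical.

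F1 libraries were deeper than all parental ones (39686992 to 53410960 assigned reads, against 19130023 to 28473088). Within groups, log2 values correlated across genes, which are not independent replicates, at 0.994 to 0.998. Scd1, a fatty acid desaturase, took 5.53% to 6.35% of all reads in F1, 3.53% to 4.76% in B6 and 4.40% to 4.65% in 129, and RPKM values of all other genes share what remains. Libraries were therefore also rescaled by the median of ratios. Adipocyte markers were abundant in every library, with sums over 14 genes of 38993 to 41133 RPKM in F1 and 30764 to 37158 in the parents. Fabp4 made up most of these sums, with means of 31345.1 RPKM in F1, 23544.5 in B6 and 26914.7 in 129 (limma adjusted p against the mid-parent level = 0.0598). Of the 14 markers 3 were called higher than the mid-parent level (8.35% of all genes were) and 2 lower (14.8% of all genes were). The median log2 difference of the markers was -0.005. No lymphocyte marker was expressed highly enough to be tested.

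On the log2 scale 964 genes (8.35%) were higher in F1 than the mid-parent level and 1712 (14.8%) were lower, by limma with Benjamini-Hochberg adjusted p under 0.05. On RPKM 889 genes (7.7%) were higher and 1785 (15.5%) lower. The split was nearly even once libraries had been rescaled by the median of ratios, with 1425 higher and 1250 lower on log2 and 1348 and 1312 on RPKM, and voom called 1811 higher and 1351 lower, so the excess of lower genes was lost under both of these. The median over all genes moved from -0.03 to 0.01 with that rescaling. With every library thinned to 19130023 reads, 832 genes were higher and 1495 lower. Most differences were small. Among the genes called on log2, the median absolute log2 difference was 0.23. On log2(RPKM + 1), which understates the change of low genes, a difference of at least 1.5-fold was reached by 77 higher and 71 lower genes, and one of at least 2-fold by 11 higher and 3 lower genes. Both scales called 873 genes higher and 1674 lower, and they called 2 genes in opposite directions. Those 2, chosen after their values were seen, had parents far apart. Sorl1, a sorting receptor, had 31.8 ± 0.66 RPKM in B6, 0.282 ± 0.0195 in 129 and 9.41 ± 1.01 in F1, above the mid-parent level on log2 (0.68) and 0.587 times the arithmetic mean. Abhd1 had 0.773 ± 0.0775 RPKM in B6, 13.6 ± 1.22 in 129 and 5.63 ± 0.266 in F1, with a log2 difference of 0.38 and 0.785 times the arithmetic mean.

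Each gene was then put into a class on the log2 scale. F1 was above both parents for 325 genes (2.82%) and below both for 571 (4.95%), where both parental contrasts passed. F1 differed from B6 in 3599 genes (31.2%) and from 129 in 3200 (27.7%). Among the 4333 genes (37.5%) that differed between the parents, 525 (4.55% of all genes) were additive, meaning between the parents, past the threshold against each of them and not past it against the mid-parent level. A further 438 (3.79%) were B6-like and 592 (5.13%) 129-like, meaning not called different from that parent but called different from the other and from the mid-parent level. Another 73 (0.632%) lay between the parents but nearer B6, and 67 (0.58%) nearer 129. For 2391 genes (20.7%) the parents differed but F1 could not be placed, and for 6560 (56.8%) the parents were not called different and F1 was not outside both. The plot of F1 against the parental difference shows these classes as sectors around the origin. On RPKM the classes above both, below both, additive, B6-like and 129-like held 348 (3.02%), 501 (4.34%), 487 (4.22%), 480 (4.16%) and 631 (5.47%) genes. The 2 scales shared 324, 500, 418, 404 and 554 of them. The rescaling moved the class above both to 524 genes and the class below both to 396, so which of the 2 was larger also depended on it.

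**Figure D1:**
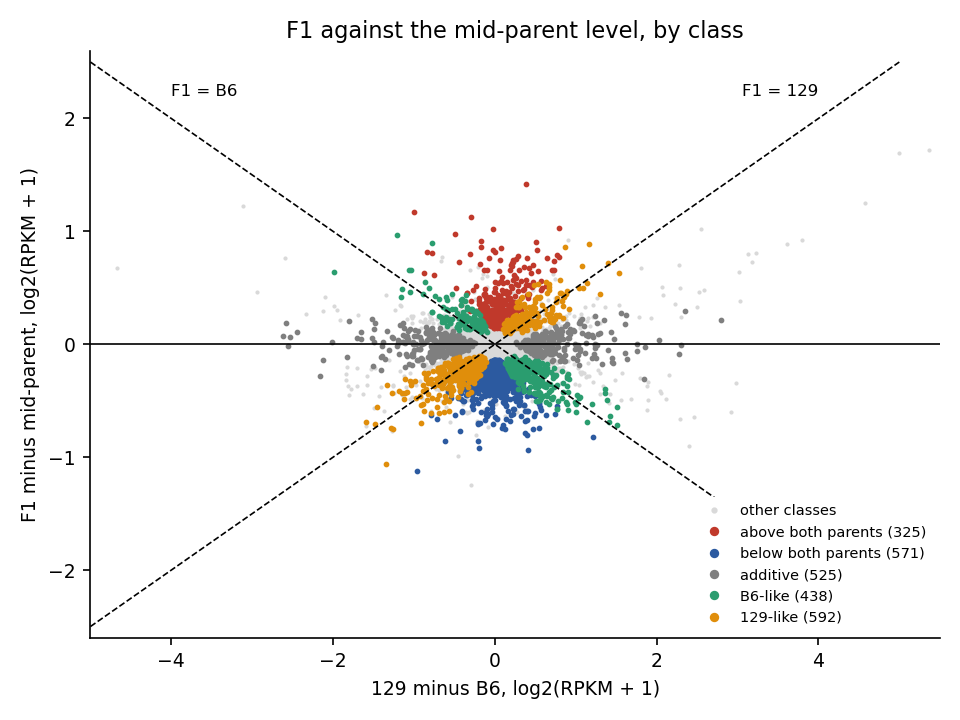
Each point is 1 of the 11542 tested genes, with the difference of 129 from B6 on the horizontal axis and of F1 from the mid-parent level on the vertical axis, both in log2(RPKM + 1), coloured by class. Genes beyond the ends of the axes, such as Tpsab1 with a difference of 129 from B6 of 5.80, are not shown. Dashed lines mark F1 equal to B6 or to 129, and the 325 genes above both and 571 below both lie in the sectors over and under the crossing point, mostly within 1 log2 unit.

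The genes farthest above both parents were a mixed group of receptors, secreted proteins and mitochondrial isoforms. Genes above both parents lay a median 0.25 log2 units above the nearer one, and 26 of the 325 lay at least 1.5-fold above it on log2(RPKM + 1). Ntsr2, a receptor for neurotensin (chromosome 12, 16660276 to 16667042), had 2.02, 2.74 and 1.87 RPKM in B6, 1.28, 2.09 and 1.5 in 129 and 5.72, 5.39 and 4.85 in F1. Its lowest F1 library was above every parental library. The F1 mean was 2.78 times the mean of the parents (log2 difference from the mid-parent level 1.13, SE 0.11, limma adjusted p = 9.19e-05). Gipr, the receptor of the gut hormone GIP, had 0.935, 1.75 and 0.808 RPKM in B6, 0.985, 1.35 and 1.06 in 129 and 2.47, 3.27 and 2.52 in F1, or 2.4 times the mean of the parents (log2 difference from the mid-parent level 0.81, SE 0.13, limma adjusted p = 0.00151). Rbp4, the retinol carrier of blood that adipocytes secrete, had 173, 218 and 164 RPKM in B6, 163, 195 and 188 in 129 and 324, 342 and 313 in F1, and no F1 library overlapped a parent. It was 1.78 times the mean of the parents (log2 difference from the mid-parent level 0.83, SE 0.09, limma adjusted p = 0.00016). The protease inhibitor A2m had 3.3, 4.77 and 2.5 RPKM in B6, 3.07, 3.28 and 2.54 in 129 and 7.07, 7.08 and 6.48 in F1. A2m was at 2.12 times the mean of the parents (limma adjusted p = 0.000769). H2-Ab1, the beta chain of an MHC class II molecule, had 2.45, 4.03 and 2.09 RPKM in B6, 2.18, 2.77 and 2.12 in 129 and 5.41, 5.71 and 5.29 in F1, again with all F1 libraries above the parents (2.1 times their mean, limma adjusted p = 0.00116). MHC class II is known from immune cells such as macrophages. Of 12 macrophage markers tested none was called, none passed at an unadjusted p under 0.05 or by voom on recovered reads, and they summed to 45.6 to 67.7 RPKM in F1, 52.7 to 66.4 in B6 and 24.5 to 54.8 in 129. Their part in the H2-Ab1 level was not tested.

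Isoforms of mitochondrial proteins were in this class as well. Ndufa4l2, an isoform of a respiratory chain protein that is known to be induced by low oxygen, had 64.99, 115 and 54.04 RPKM in B6, 72.7, 88.9 and 73.96 in 129 and 150.2, 133 and 131 in F1. F1 was above all parental libraries, and B6 replicate 2 was far above the other B6 libraries. The log2 difference from the mid-parent level was 0.85 (SE 0.19, limma adjusted p = 0.0085). Cox4i2, the alternative isoform of subunit 4 of cytochrome c oxidase, had 3.48, 5.75 and 4.03 RPKM in B6, 3.53, 4.35 and 4.35 in 129 and 8.25, 7.67 and 7.56 in F1, 1.84 times the mean of the parents in F1 (limma adjusted p = 0.000944). Coro6, an actin-binding coronin, had 6.99 ± 0.342 RPKM in F1, against 3.87 ± 0.781 in B6 and 2.45 ± 0.518 in 129 (2.21 times the mean of the parents, limma adjusted p = 0.000205). In all 8 of these genes B6 replicate 2 was the highest B6 library. The panels of single genes show these patterns next to genes of the other classes.

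**Figure D2:**
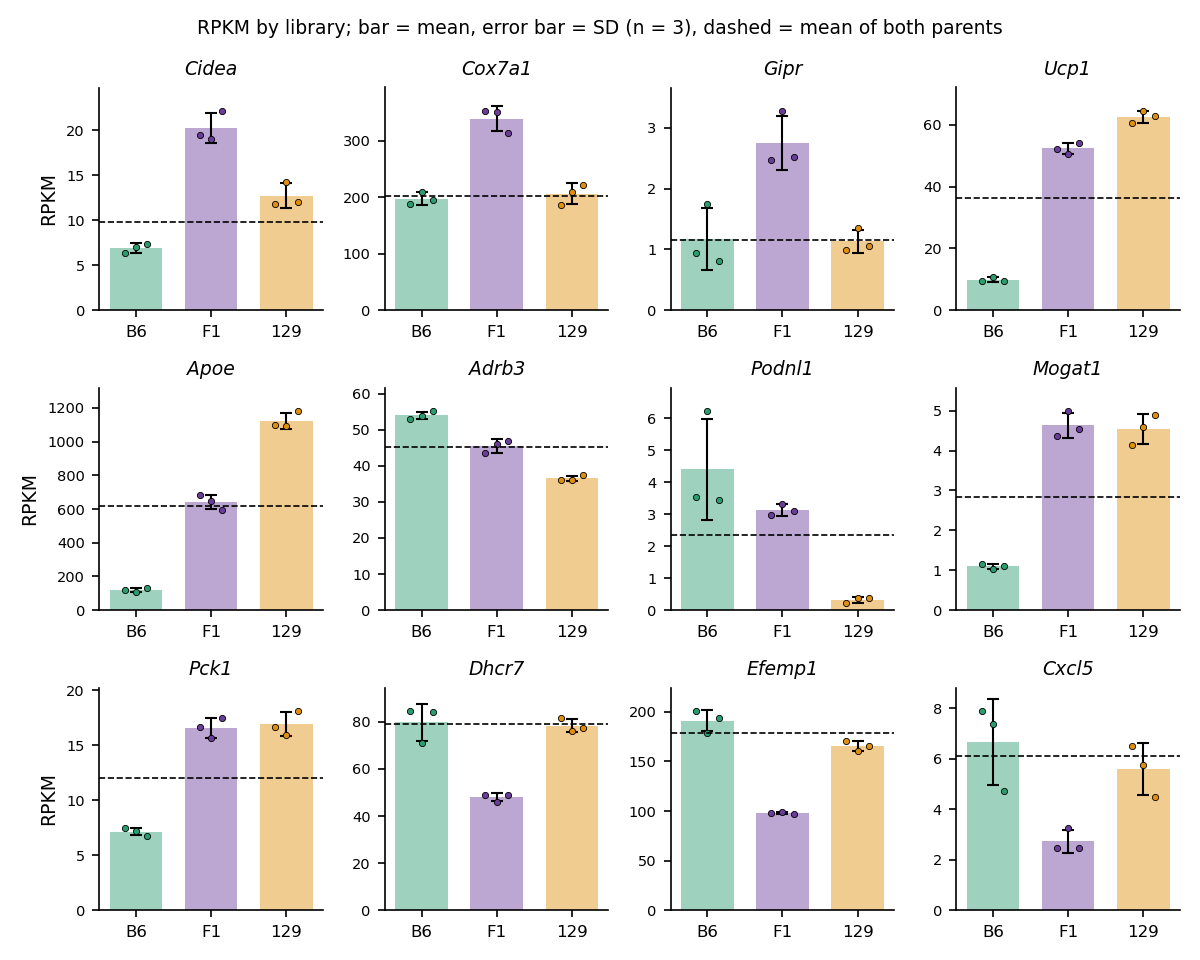
RPKM by library for 12 genes in B6, F1 and 129. Points are libraries, bars the means, error bars the SD over 3 libraries and dashed lines the arithmetic mean of both parents. F1 is above both parents for Cidea, Cox7a1 and Gipr, at the mean of the parents for Apoe and Adrb3, at one parent for Mogat1 and Pck1, and below both for Dhcr7, Efemp1 and Cxcl5.

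Genes of glycolysis and the hypoxia response were the list with the highest share of higher genes. The list joins enzymes that split glucose with other genes known to be switched on by hypoxia-inducible factors (HIF). These factors bind the core letters ACGTG or GCGTG in promoters and enhancers. Of 26 members tested, 23 (88.5%, against 8.35% of all genes) were higher than the mid-parent level, none was lower (also none at an unadjusted p under 0.05 or by voom), and 17 were above both parents. Eno2, Pfkm and Ndrg1 did not pass. The median difference was 0.35, against -0.03 over all genes. F1 libraries lay above all parental ones for 22 members, against 5.72% of all genes. The mean log2 level over the list was 7.08 to 7.13 in F1, 6.79 to 6.89 in 129 and 6.49 to 6.78 in B6, where replicate 2 was the highest library. Without that library 24 members were higher, and 19 without F1 replicate 1.

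By role, steps at both ends of the pathway were higher. At glucose entry, the transporter Slc2a1 had 46.2 ± 0.884 RPKM in F1, against 35.4 ± 4.51 in B6 and 44.9 ± 1.23 in 129, a 129-like level. Hexokinase Hk2, which traps glucose in the cell, was above both parents, with 46.97 ± 1.66 RPKM in F1, against 40.03 ± 2.37 in B6 and 37.9 ± 2.55 in 129. Phosphofructokinase commits sugar to glycolysis, and its 3 genes fell into 3 classes. The platelet type Pfkp (chromosome 13, 6579120 to 6648017) had 19.3, 22.8 and 18.8 RPKM in B6, 33.6, 37.5 and 36.6 in 129 and 45.2, 49.6 and 45.5 in F1. All F1 libraries exceeded all 129 libraries, which in turn exceeded B6. F1 was 1.66 times the mean of the parents (log2 difference from the mid-parent level 0.77, SE 0.06, limma adjusted p = 4.3e-05). The liver type Pfkl was 129-like on log2, with 191 ± 8.49 RPKM in F1, against 135 ± 16.96 in B6 and 163 ± 7.08 in 129. The muscle type Pfkm did not pass (log2 difference 0.07, limma adjusted p = 0.243).

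Other enzymes of glycolysis were above both parents. Gpi1, the isomerase before phosphofructokinase, had 818 ± 17.7 RPKM in F1, against 561 ± 83.3 in B6 and 556 ± 28.5 in 129. Pgk1, which makes ATP, had 1403 ± 47.4 RPKM in F1, against 894 ± 159 in B6 and 1062 ± 42.2 in 129. Ldha, which turns pyruvate into lactate, had 1574 ± 55.6 RPKM in F1, against 1169.7 ± 75.5 in B6 and 1304 ± 39.9 in 129. These 3 enzymes lay between 1.27 and 1.47 times the mean of the parents. The lactate exporter Slc16a3 had 34.7 ± 2.08 RPKM in F1, against 19.7 ± 4.15 in B6 and 28.5 ± 1.44 in 129 and was 129-like on log2 (difference from the mid-parent level 0.54). Pdk1, a kinase that inhibits pyruvate dehydrogenase, had 59.2 ± 1.77 RPKM in F1, against 48.1 ± 3.49 in B6 and 48.4 ± 0.711 in 129, above both.

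The hypoxia-regulated genes outside glycolysis moved with them. Bnip3, a mediator of mitophagy, had 579.7, 698 and 570.2 RPKM in B6, 598, 632 and 610.3 in 129 and 881, 869.6 and 852 in F1. The parents were not called different and all F1 libraries were above them, with F1 at 1.41 times the mean of the parents (log2 difference from the mid-parent level 0.50, SE 0.06, limma adjusted p = 0.000501). Egln3, a prolyl hydroxylase that marks HIF for destruction, had 72.03, 90.1 and 72.00 RPKM in B6, 83.2, 94.4 and 94.2 in 129 and 122, 127 and 125 in F1, 1.48 times the mean of the parents (limma adjusted p = 0.000476). Ero1l, an oxidase of protein folding in the endoplasmic reticulum, had 111, 139 and 100.3 RPKM in B6, 185, 202 and 191 in 129 and 241, 250.1 and 258 in F1 (log2 difference 0.74, SE 0.08, limma adjusted p = 0.00023). Further genes were above both parents. Ankrd37 had 18.4 ± 0.312 RPKM in F1, against 10.9 ± 1.42 in B6 and 14.5 ± 1.34 in 129. The angiogenic factor Vegfa had 160.2 ± 6.27 RPKM in F1, against 117 ± 14.1 in B6 and 119.6 ± 5.4 in 129. The carbonic anhydrase Car9 was scarce, with 1.65 ± 0.112 RPKM in F1, against 0.753 ± 0.418 in B6 and 0.988 ± 0.186 in 129. The dot plot of each library shows F1 libraries close together and right of the parents, and B6 libraries that spread more. Why B6 replicate 2 had the highest list mean in B6 was not tested.

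**Figure D3:**
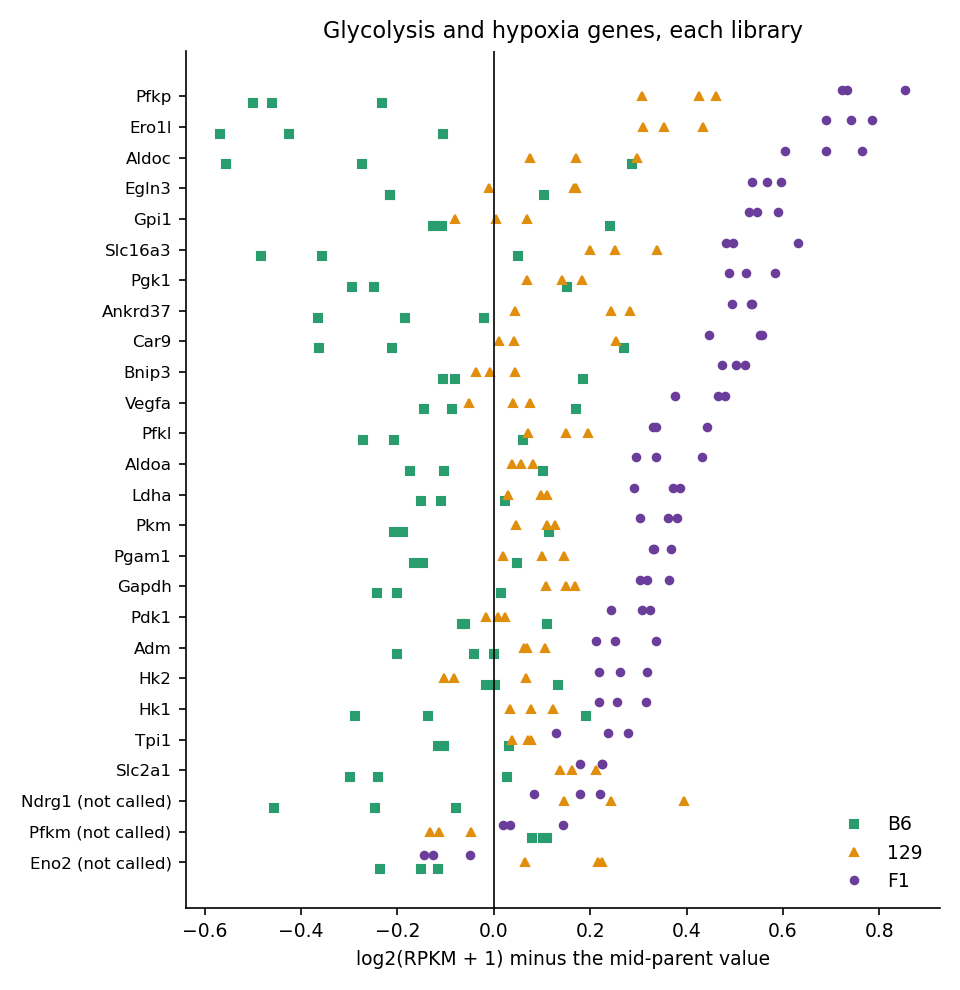
Difference of each library from the mid-parent level in log2(RPKM + 1) for the 26 tested glycolysis and hypoxia genes, ordered by the F1 difference. Squares are B6, triangles 129 and circles F1 (3 libraries each), and F1 circles lie right of all parental points for 22 genes.

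The 250 bases before the transcript starts of the list members were searched for ACGTG and GCGTG on both strands. Genes known to be switched on by HIF were put in this list, so the number of cores is no test of the F1 levels. The windows are those of RefSeq on GRCm38.p6, whose coordinates differ from the mm9 coordinates of the expression values. Of the 26 genes 25 had a window, Ero1l under its newer symbol Ero1a. A core was found in 27 of their 36 windows (75%) against 12679 of 32851 windows of the same length over all genes (38.6%). At least 1 window with a core was found for 22 of the 25 genes, against 11226 of 27025 genes in all (41.5%). Both strands match in CACGTG, which counts as a start on each of them. Gpi1, Tpi1 and Eno2 had no core in this window. Bnip3, Ankrd37 and Pfkp are printed as examples of members above both parents, with 5, 4 and 3 core positions. Ldha, with 5, and Pgam1 and Ero1l, with 3 each, were also above both. Hk1, with 3 as well, was higher than the mid-parent level (limma adjusted p = 0.0448) but not called above both. At least 3 were held by 6.58% of all windows. They read 5′ to 3′ on the minus strand, with the core letters of either strand in capitals. A match is a description of the letters and no proof of binding.
Bnip3, chr7:138909507-138909756: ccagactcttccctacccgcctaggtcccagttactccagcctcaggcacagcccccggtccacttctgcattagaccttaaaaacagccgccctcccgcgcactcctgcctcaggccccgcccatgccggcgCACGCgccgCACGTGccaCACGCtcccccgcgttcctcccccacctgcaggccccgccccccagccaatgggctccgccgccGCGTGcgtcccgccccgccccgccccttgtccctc
Ankrd37, chr8:45999851-46000100: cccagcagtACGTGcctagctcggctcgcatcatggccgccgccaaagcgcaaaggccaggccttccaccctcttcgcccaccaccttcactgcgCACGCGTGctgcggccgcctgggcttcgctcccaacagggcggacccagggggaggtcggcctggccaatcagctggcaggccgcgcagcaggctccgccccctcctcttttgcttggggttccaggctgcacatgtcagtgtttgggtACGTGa
Pfkp, chr13:6648772-6649021: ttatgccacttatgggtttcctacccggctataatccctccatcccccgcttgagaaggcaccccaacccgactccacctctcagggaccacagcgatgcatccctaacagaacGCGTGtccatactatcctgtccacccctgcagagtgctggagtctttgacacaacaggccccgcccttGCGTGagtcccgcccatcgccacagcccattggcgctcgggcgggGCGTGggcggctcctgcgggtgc

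Brown fat genes were also mostly higher in F1, though not the best known regulators of the programme. Of 22 genes tested 12 (54.5%, against 8.35% of all genes) were higher and 2 lower (14.8% of all genes were), and 8 were above both parents, as were 2.82% of all genes. The mean log2 level was 3.96 to 4.05 in F1, 3.74 to 3.77 in B6 and 3.70 to 3.77 in 129. Ucp1, the uncoupling protein (chromosome 8, 85814247 to 85822355), had 9.39, 10.7 and 9.51 RPKM in B6, 60.5, 64.4 and 63.03 in 129 and 52.3, 50.6 and 54.2 in F1. The groups did not overlap, and F1 was called different from each parent and nearer 129. It was 1.44 times the mean of the parents (log2 difference from the mid-parent level 1.02, SE 0.05, limma adjusted p = 1.75e-06), and on RPKM it lay 80.5% of the way from B6 to 129. Cidea, which helps fuse lipid droplets in brown fat, had 6.33, 7.05 and 7.4 RPKM in B6, 11.8, 14.3 and 12.1 in 129 and 19.5, 19.1 and 22.1 in F1. Every F1 library was above every 129 library, and these above B6, with F1 at 2.06 times the mean of the parents (log2 difference from the mid-parent level 1.03, SE 0.07, limma adjusted p = 2.63e-05). Cox7a1, a cytochrome c oxidase subunit of muscle and brown fat, had 187, 209.8 and 195 RPKM in B6, 187, 209.7 and 222 in 129 and 352, 351 and 314 in F1 and was 1.68 times the mean of the parents (log2 difference from the mid-parent level 0.75, SE 0.06, limma adjusted p = 6.07e-05). Its relative Cox8b, highest in B6 of the 2 parents, had 40.3, 40.5 and 38.1 RPKM in B6, 21.1, 22.3 and 19.9 in 129 and 48.7, 42.8 and 44.5 in F1. There too all F1 libraries were above all parental ones, by a smaller step over B6 (1.15-fold) than over 129 (2.15-fold).

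Further genes above both parents act in lipid use and in the identity of the cell. Plin5, which joins lipid droplets to mitochondria, had 47.6 ± 3.82 RPKM in F1, against 25.8 ± 0.976 in B6 and 30.2 ± 3.0 in 129. The kinase Pdk4 had 60.7 ± 3.37 RPKM in F1, against 50.2 ± 1.65 in B6 and 44.5 ± 1.09 in 129. The thioesterase Acot2 had 26.3 ± 0.0851 RPKM in F1, against 18.6 ± 1.45 in B6 and 21.4 ± 0.908 in 129. In these 3 the F1 mean was 1.28 to 1.7 times the mean of the parents. The proton channel Otop1 had 2.37 ± 0.124 RPKM in F1, against 1.77 ± 0.363 in B6 and 1.7 ± 0.28 in 129. Ebf2, a transcription factor that marks brown and beige precursors, had 12.5 ± 0.811 RPKM in F1, against 9.34 ± 0.451 in B6 and 9.78 ± 0.213 in 129. Others were higher and B6-like. The nuclear receptor Ppara had 14.5 ± 1.58 RPKM in F1, against 12.5 ± 0.715 in B6 and 9.19 ± 0.502 in 129, and the potassium channel Kcnk3 had 20.04 ± 1.81 RPKM in F1, against 20.5 ± 0.436 in B6 and 13.9 ± 0.447 in 129. The elongases were the 2 lower members. Elovl3 had 103 ± 1.78 RPKM in F1, against 125 ± 16.3 in B6 and 142 ± 12.2 in 129 and was below both on log2, and Elovl6 had 6.06 ± 0.0796 RPKM in F1, against 8.6 ± 0.353 in B6 and 6.44 ± 0.382 in 129 and was 129-like.

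Several genes that control the programme were not called different from the mid-parent level. Ppargc1a, a coactivator of mitochondrial genes, had 9.05, 8.32 and 8.54 RPKM in B6, 5.54, 5.02 and 5.63 in 129 and 6.71, 6.87 and 8.23 in F1 and was additive. Its log2 difference from the mid-parent level was 0.07 (limma adjusted p = 0.433). Adrb3, the beta-3 adrenergic receptor, had 53.1, 53.8 and 55.1 RPKM in B6, 36.1, 36.2 and 37.4 in 129 and 43.4, 46.1 and 46.95 in F1, with every F1 library between the parental ranges and a log2 difference of 0.03 (limma adjusted p = 0.541). Prdm16, a brown fat regulator, had 1.3 ± 0.147 RPKM in F1, against 1.54 ± 0.0892 in B6 and 1.03 ± 0.136 in 129 (log2 difference 0.01, limma adjusted p = 0.907). Dio2, which makes active thyroid hormone, had 2.02 ± 0.123 RPKM in F1, against 2.26 ± 0.156 in B6 and 2.46 ± 0.139 in 129 (log2 difference -0.15, limma adjusted p = 0.062), and it passed without B6 replicate 2 (-0.17). Ppargc1b, a relative of Ppargc1a, was B6-like with 11.7 ± 1.18 RPKM in F1, against 11.6 ± 0.635 in B6 and 8.28 ± 0.912 in 129. Its log2 difference of 0.23 (limma adjusted p = 0.0411) no longer passed without F1 replicate 3 (0.16) and in 6 other settings.

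The NFI transcription factors, one of which is named in the series title, showed no difference of more than 0.24 log2 units from the mid-parent level. Nfia (6.8, 7.67 and 6.97 RPKM in B6, 8.15, 8.35 and 7.44 in 129 and 7.78, 7.02 and 8.01 in F1) had overlapping groups and a difference of 0.01 (SE 0.05, limma adjusted p = 0.934). Nfib was at -0.08 (limma adjusted p = 0.216). Nfix was lower in F1, with 20.8 ± 1.25 RPKM in F1, against 26.2 ± 2.23 in B6 and 23.2 ± 0.531 in 129 (log2 difference -0.24, limma adjusted p = 0.0101), but did not pass without F1 replicate 1. Nfic was lower too, with 14.9 ± 0.52 RPKM in F1, against 16.7 ± 0.835 in B6 and 16.9 ± 0.952 in 129 (log2 difference -0.16, limma adjusted p = 0.0269), but not after rescaling, by voom, or without F1 replicate 1 or 2.

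Mitochondrial lists held more higher than lower genes, by small steps. In fatty acid oxidation 9 of 24 genes (37.5%, against 8.35% of all genes) were higher and 2 (8.33%, against 14.8%) lower. Above both parents were 6, as were 2.82% of all genes. Acot13, a thioesterase, had 77.8, 80.01 and 77.3 RPKM in B6, 71.6, 70.5 and 71.99 in 129 and 109, 102 and 94.9 in F1, so that all F1 libraries were above both parents (1.36 times their mean, limma adjusted p = 0.000108). Etfa, which passes electrons from fat to the respiratory chain, had 366 ± 13.5 RPKM in F1, against 306 ± 3.75 in B6 and 270.3 ± 6.35 in 129. The thiolase Acaa2 had 522 ± 24.7 RPKM in F1, against 379 ± 14.3 in B6 and 439 ± 29.4 in 129, and the thiolase subunit Hadhb had 667 ± 16.9 RPKM in F1, against 534 ± 17.9 in B6 and 575 ± 18.9 in 129. These 3 were above both as well. Cpt1a, a gatekeeper of fat entry into mitochondria, was below both, with 10.1 ± 0.331 RPKM in F1, against 12.5 ± 0.754 in B6 and 13.8 ± 0.937 in 129. Of 70 nuclear genes of oxidative phosphorylation 18 (25.7%, against 8.35% of all genes) were higher. None was lower, also none at an unadjusted p under 0.05 or by voom. Ndufv3 of complex I had 144, 169 and 145 RPKM in B6, 138, 147 and 154 in 129 and 199, 173 and 179 in F1 and was above both. Sdha of complex II had 463, 449 and 467 RPKM in B6, 345, 347 and 360.3 in 129 and 471, 446 and 459 in F1 and was B6-like. The number higher was 24 after rescaling and 34 by voom, but 10 without the expression filter, 6 without F1 replicate 1, 9 and 10 without 129 replicates 1 and 2, and 11 without B6 replicate 1. Of 76 mitochondrial ribosomal proteins 12 (15.8%, against 8.35% of all genes) were higher, 4 without F1 replicate 1, 19 after rescaling and 22 by voom. In the citric acid cycle 4 of 20 (20%, against 8.35% of all genes) were higher, 2 without F1 replicate 1, 7 after rescaling and 9 by voom. Idh2, the isocitrate dehydrogenase that makes NADPH in mitochondria, had 46.03, 48.7 and 47.6 RPKM in B6, 31.7, 35.7 and 33.99 in 129 and 59.1, 58.1 and 53.7 in F1 and lay above both parents (1.4 times the mean of the parents, log2 difference from the mid-parent level 0.50, SE 0.05, limma adjusted p = 7.76e-05).

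Stress-related genes were split. Of 25 genes of the endoplasmic reticulum and integrated stress response, 9 (36%, against 8.35% of all genes) were higher and 4 (16%, against 14.8%) lower. Those higher included Atf4, the transcription factor of the integrated stress response, and several genes it is known to induce. Sesn2, another gene it is known to induce, was below both parents, with 14.7 ± 0.206 RPKM in F1, against 16.99 ± 0.432 in B6 and 16.8 ± 0.643 in 129 (log2 difference -0.19, limma adjusted p = 0.0037). Ddit3, which encodes CHOP, had 41.3, 40.8 and 43.4 RPKM in B6, 61.5, 62.3 and 64.2 in 129 and 73.6, 73.8 and 67.6 in F1 and was above both parents (1.37 times the mean of the parents, log2 difference from the mid-parent level 0.48, SE 0.04, limma adjusted p = 5.02e-05). Asns, which makes asparagine, had 63.4, 63.8 and 64.5 RPKM in B6, 63.5, 66.7 and 65.5 in 129 and 85.99, 79.4 and 79.5 in F1, with F1 above all parental libraries (limma adjusted p = 0.000207). Other members were higher and 129-like. Trib3, a pseudokinase, had 19.8 ± 1.01 RPKM in F1, against 10.8 ± 0.542 in B6 and 17.8 ± 1.87 in 129. The hormone Fgf21 had 9.84 ± 0.296 RPKM in F1, against 5.38 ± 0.694 in B6 and 11.1 ± 1.18 in 129, and Chac1, which degrades glutathione, had 5.29 ± 0.108 RPKM in F1, against 2.72 ± 0.561 in B6 and 4.21 ± 0.842 in 129. The lower genes other than Sesn2 act in protein folding in the endoplasmic reticulum. The disulfide isomerase Pdia3 had 149 ± 0.361 RPKM in F1, against 172 ± 3.62 in B6 and 166 ± 8.08 in 129, below both parents. Calreticulin (Calr) had 328 ± 6.79 RPKM in F1, against 348 ± 6.74 in B6 and 377 ± 12.1 in 129. The co-chaperone Dnajb9 had 69.6 ± 4.76 RPKM in F1, against 100.2 ± 8.28 in B6 and 70.6 ± 3.7 in 129, a 129-like level. The chaperones Hspa5, Hsp90b1, Canx, Pdia4 and Pdia6 did not pass. Of 18 cytosolic heat shock proteins 5 were lower (27.8%, against 14.8% of all genes), 3 without F1 replicate 2. Another 1 was higher (5.56%, against 8.35%). Hsph1, one of the lower, had 17.01 ± 0.724 RPKM in F1, against 22.2 ± 0.667 in B6 and 17.9 ± 0.557 in 129 and was 129-like.

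Among 14 genes known to be induced by glucocorticoids, such as the dexamethasone of the induction medium, 7 (50%, against 8.35% of all genes) were higher, 11 by voom. Another 1 (7.14%, against 14.8% of all genes) was lower. The metal-binding protein Mt1 had 440.5, 558 and 421 RPKM in B6, 678, 900.4 and 846 in 129 and 1168, 1113 and 924 in F1, with F1 above both parents (1.67 times the mean of the parents, log2 difference from the mid-parent level 0.79, SE 0.12, limma adjusted p = 0.001). Its relative Mt2 had 691 ± 119 RPKM in F1, against 284 ± 69.7 in B6 and 512 ± 39.6 in 129, 129-like on log2 and above both on RPKM. Ddit4, an inhibitor of the growth kinase mTOR that hypoxia also induces, had 87.2 ± 4.35 RPKM in F1, against 56.2 ± 4.99 in B6 and 74.8 ± 6.16 in 129. Fkbp5, a chaperone of the glucocorticoid receptor, had 35.6 ± 3.77 RPKM in F1, against 28.00 ± 3.14 in B6 and 27.3 ± 2.45 in 129. These 2 were above both parents. The heme oxygenase Hmox1, from the list of NRF2 antioxidant genes, had 105, 141 and 100.3 RPKM in B6, 150.2, 162 and 154 in 129 and 217, 206 and 198 in F1 and was 1.53 times the mean of the parents (log2 difference from the mid-parent level 0.63, SE 0.09, limma adjusted p = 0.000944). Of the 21 genes of that list 3 were higher (14.3%, against 8.35% of all genes) and 5 lower (23.8%, against 14.8%). The count of lower genes ran from 1 without F1 replicate 3 to 9 without B6 replicate 2. Of 18 clock genes 4 (22.2%, against 8.35% of all genes) were higher. The number was 2 without B6 replicate 1, 129 replicate 1 or F1 replicate 1 or 3, and 8 after rescaling. B6 replicate 2 was the highest B6 library for Mt1 and Hmox1, as in the hypoxia list.

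Genes below both parents included chemokines and matrix proteins. Their median distance below the nearer parent was 0.25 log2 units, and 19 of the 571 lay at least 1.5-fold below it on log2(RPKM + 1), a scale that understates the change of low genes. Efemp1, a fibulin of the matrix (chromosome 11, 28753205 to 28826743), had 201, 179 and 194 RPKM in B6, 170.2, 161 and 165 in 129 and 97.9, 99.02 and 96.6 in F1. F1 was 0.548 times the mean of the parents (log2 difference from the mid-parent level -0.86, SE 0.04, limma adjusted p = 2.47e-06), and its spread between libraries was the smallest of the 3 groups. Ccl11, the chemokine eotaxin, had 3.71, 2.29 and 2.49 RPKM in B6, 4.62, 3.47 and 4.05 in 129 and 1.24, 1.41 and 1.17 in F1 (0.371 times the mean of the parents, limma adjusted p = 0.000289). Cxcl5, a chemokine for neutrophils, had 7.88, 7.39 and 4.71 RPKM in B6, 6.52, 5.77 and 4.51 in 129 and 2.45, 3.24 and 2.48 in F1, with all F1 libraries below all parental ones while B6 and 129 overlapped (0.444 times, limma adjusted p = 0.00143). Il1r2, a decoy receptor for interleukin 1, had 1.17 ± 0.0779 RPKM in F1, against 2.53 ± 0.419 in B6 and 2.84 ± 0.442 in 129. The chemokine Cxcl14 had 3.85 ± 0.313 RPKM in F1, against 6.81 ± 1.67 in B6 and 7.25 ± 0.352 in 129. The matrix protein Smoc2 had 1.68 ± 0.0375 RPKM in F1, against 3.44 ± 1.08 in B6 and 3.63 ± 0.609 in 129. Their F1 means were 0.438, 0.547 and 0.475 times those of the parents. Cyp2f2, a cytochrome P450, had 4.35 ± 0.32 RPKM in F1, against 15.5 ± 3.11 in B6 and 7.41 ± 1.24 in 129 and was below both on log2 and 129-like on RPKM.

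Across the inflammation and acute phase list 17 of 20 genes tested (85.0%, against 14.8% of all genes) were lower and none higher, also none at an unadjusted p under 0.05 or by voom. F1 libraries lay below all parental ones for 9 of them, against 9.7% of all genes. The mean log2 level of the list was 3.73 to 3.91 in F1, 4.23 to 4.36 in B6 and 4.22 to 4.30 in 129. Of the chemokines, Cxcl12 had 89.7, 87.9 and 86.99 RPKM in B6, 96.5, 88.8 and 93.8 in 129 and 63.5, 69.99 and 62.6 in F1 and was below both parents (0.721 times the mean of the parents, log2 difference from the mid-parent level -0.47, SE 0.04, limma adjusted p = 9.19e-05). Ccl2, which draws monocytes, had 7.03 ± 1.68 RPKM in F1, against 10.6 ± 2.4 in B6 and 9.17 ± 0.745 in 129 (log2 difference -0.45). The related chemokine Ccl7 had 11.7 ± 1.66 RPKM in F1, against 17.6 ± 3.49 in B6 and 15.3 ± 0.948 in 129 (log2 difference -0.45). Adhesion molecules split by class. Vcam1 had 36.2, 32.9 and 29.7 RPKM in B6, 43.1, 39.6 and 40.3 in 129 and 24.2, 27.1 and 25.4 in F1 and was below both (limma adjusted p = 0.000303). Icam1 had 5.3, 4.96 and 5.21 RPKM in B6, 2.2, 2.66 and 2.01 in 129 and 1.8, 2.03 and 1.51 in F1 and was 129-like. Acute phase proteins fell into several classes. Orm1 had 77.7 ± 2.56 RPKM in F1, against 94.2 ± 7.77 in B6 and 109 ± 6.5 in 129, and Orm2 had 2.8 ± 0.418 RPKM in F1, against 4.79 ± 0.69 in B6 and 6.61 ± 0.59 in 129, the 2 of them below both parents. These orosomucoid genes are close copies, and reads may be split between them. Saa3 had 10.5 ± 1.78 RPKM in F1, against 12.4 ± 2.34 in B6 and 18.5 ± 0.901 in 129, and the protease inhibitor Serpina3n had 369.5 ± 23.3 RPKM in F1, against 351 ± 20.2 in B6 and 531 ± 15.9 in 129, both B6-like. Complement C3 was 129-like, with 109.9 ± 2.61 RPKM in F1, against 163 ± 9.4 in B6 and 108 ± 6.64 in 129. Haptoglobin (Hp) was additive and did not pass, with 588 ± 43.9 RPKM in F1, against 824 ± 59.5 in B6 and 391 ± 20.4 in 129. The number of lower genes was 13 after rescaling and 9 without F1 replicate 3. Of 28 interferon response genes 2 (7.14%, below the 14.8% of all genes) were lower and none higher. None of the 28 had a difference above the mid-parent level, called or not, while 4782 of all 11542 genes had. The median difference of the list was -0.36, against -0.03 over all genes. B6 replicate 1 stood apart there with a mean log2 level of 4.37, against 2.93 and 3.16 in the other B6 libraries, and without it 4 were lower. The count was 0 without 129 replicate 1 or F1 replicate 2 or 3, and 6 without B6 replicate 2. Of 13 genes of MHC class I presentation none was called by limma, 2 were lower at an unadjusted p under 0.05, and 1 was lower by voom.

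Many genes of lipid synthesis were lower in F1. For cholesterol synthesis and uptake 14 of 24 genes (58.3%, against 14.8% of all genes) were lower and 1 (4.17%, against 8.35%) higher. The list lay close to the 129 level, with mean log2 levels of 5.32 to 5.36 in F1, 5.27 to 5.30 in 129 and 5.73 to 5.82 in B6, and 9 members were 129-like. The demethylase Cyp51 had 95.7 ± 3.67 RPKM in F1, against 169 ± 26.3 in B6 and 90.2 ± 2.0 in 129. Hsd17b7 had 42.6, 40.2 and 41.6 RPKM in B6, 19.9, 18.9 and 17.7 in 129 and 20.7, 21.7 and 21.5 in F1, between the parents and nearer 129. Late enzymes of the pathway went below both parents. Dhcr7, which makes cholesterol from 7-dehydrocholesterol, had 84.5, 70.8 and 84.1 RPKM in B6, 81.6, 76.04 and 77.6 in 129 and 48.9, 46.1 and 48.97 in F1. The parents were not called different and all F1 libraries were below theirs, with F1 at 0.607 times the mean of the parents (log2 difference from the mid-parent level -0.71, SE 0.06, limma adjusted p = 4.09e-05). The isomerase Ebp had 41.1, 36.5 and 42.1 RPKM in B6, 34.03, 34.5 and 37.1 in 129 and 29.2, 29.3 and 27.5 in F1 (limma adjusted p = 0.000637). Its F1 mean was lowest and its B6 mean highest.

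For fatty acid and triglyceride synthesis 9 of 24 were lower (37.5%, against 14.8% of all genes) and 5 higher (20.8%, against 8.35%). Of the lower genes 6 were below both parents, as were 4.95% of all genes. Enzymes that build the carbon chain were among those below both. Acly, which yields acetyl-CoA in the cytosol, had 685 ± 31.5 RPKM in F1, against 944 ± 62.5 in B6 and 855 ± 25.5 in 129. Acaca, the acetyl-CoA carboxylase, had 251, 234 and 249 RPKM in B6, 255, 248 and 240.3 in 129 and 175, 194 and 201 in F1. Fasn, the fatty acid synthase, had 670.0 ± 11.8 RPKM in F1, against 830.2 ± 22.6 in B6 and 868 ± 57.1 in 129. These 3 were at 0.761, 0.771 and 0.789 times the mean of the parents. Me1, which supplies NADPH, had 1060.1, 988 and 1056 RPKM in B6, 1010.1, 888 and 924 in 129 and 758, 705 and 762 in F1 (0.751 times the mean of the parents, limma adjusted p = 0.000711). The desaturases Scd1 and Scd2, which act on the finished chain, went the other way. The desaturases Fads1 and Fads2 of the same list were not called above both parents. Scd1 had 7296, 9833 and 7829 RPKM in B6, 9288, 9607 and 9100.4 in 129 and 11438, 11837 and 13129 in F1, above both parents with a log2 difference of 0.47 (SE 0.11, limma adjusted p = 0.0109), and did not pass without F1 replicate 3 or without the filter. Scd2 had 618 ± 34.7 RPKM in F1, against 512 ± 37.6 in B6 and 516 ± 19.2 in 129, above both too. Mogat1, an enzyme of triglyceride synthesis, had 1.16, 1.04 and 1.11 RPKM in B6, 4.15, 4.6 and 4.9 in 129 and 4.37, 4.98 and 4.54 in F1 and was 129-like. Without F1 replicate 3 the list held 3 higher genes.

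In lipolysis 5 of 15 genes (33.3%, against 8.35% of all genes) were higher, 3 without F1 replicate 1. Another 2 were lower (13.3%, near the 14.8% of all genes). The enzymes of lipolysis split. The hormone-sensitive lipase Lipe had 280.4 ± 10.8 RPKM in F1, against 251 ± 4.03 in B6 and 249 ± 11.4 in 129, above both. Mgll, which cleaves monoglycerides in the last step, had 167, 155 and 169 RPKM in B6, 189.7, 181 and 189.9 in 129 and 153, 134 and 143 in F1, below both. Among brakes on lipolysis, the lipase inhibitor G0s2 had 686 ± 58.1 RPKM in F1, against 571 ± 10.7 in B6 and 566 ± 36.1 in 129, and Pde3b, which breaks down cAMP, had 101 ± 6.7 RPKM in F1, against 87.4 ± 3.84 in B6 and 82.8 ± 0.914 in 129. These 2 were above both parents. Mature adipocyte genes showed no common direction, with 5 of 26 higher (19.2%, against 8.35% of all genes) and 4 lower (15.4%, against 14.8%). The number higher was 8 after rescaling and 9 by voom, and 2 were lower without F1 replicate 2. Adipoq, the hormone adiponectin, had 1349.9 ± 34.2 RPKM in F1, against 1508 ± 68.3 in B6 and 1289 ± 29.9 in 129 and did not pass. Pparg, the master regulator of fat cells, had 89.7, 92.6 and 91.4 RPKM in B6, 94.8, 90.7 and 101 in 129 and 117, 104 and 109.7 in F1 and was above both. Sncg, a synuclein of adipocytes, had 73.4 ± 7.28 RPKM in F1, against 34.2 ± 4.53 in B6 and 53.7 ± 3.85 in 129, also above both. Pck1, which makes glycerol precursors, had 7.43, 7.19 and 6.78 RPKM in B6, 16.7, 15.9 and 18.1 in 129 and 16.6, 15.6 and 17.5 in F1 and was 129-like.

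Matrix, contractile and cell cycle lists each held more lower than higher genes. Of 42 matrix genes 17 (40.5%, against 14.8% of all genes) were lower and 1 (2.38%, against 8.35%) higher, 11 lower without F1 replicate 1. The protease Mmp2 had 116, 107 and 119.7 RPKM in B6, 138, 134 and 130.3 in 129 and 82.7, 86.9 and 79.8 in F1, below both parents (0.669 times the mean of the parents, log2 difference from the mid-parent level -0.57, SE 0.05, limma adjusted p = 4.09e-05). Its inhibitor Timp2 had 158, 151 and 156 RPKM in B6, 163, 153 and 159.8 in 129 and 119.8, 113 and 111 in F1 (0.73 times the mean of the parents, limma adjusted p = 6.28e-05). Elastin (Eln) had 6.3, 6.66 and 7.32 RPKM in B6, 7.85, 7.7 and 8.13 in 129 and 4.29, 4.73 and 4.09 in F1, and Fbn1, Mmp14 and Timp3 were below both too. Dcn, the proteoglycan decorin, had 220.0, 191 and 212 RPKM in B6, 444, 406 and 403 in 129 and 211, 202 and 196 in F1, so F1 overlapped B6 and was 0.486 times 129. Collagens were likewise B6-like where called lower, apart from Col4a2. Col3a1 had 1263 ± 92.2 RPKM in F1, against 1396 ± 41.9 in B6 and 2063 ± 78.8 in 129. Col5a1 had 166 ± 14.01 RPKM in F1, against 164 ± 9.7 in B6 and 236 ± 9.86 in 129, and Col6a2 had 485 ± 16.6 RPKM in F1, against 479.7 ± 17.4 in B6 and 598 ± 25.2 in 129.

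Of 20 contractile genes and targets of serum response factor 11 (55%, against 14.8% of all genes) were lower. Acta2, smooth muscle actin, had 63.98, 64.6 and 59.5 RPKM in B6, 59.5, 59.7 and 57.9 in 129 and 45.9, 47.9 and 46.2 in F1 and was below both (0.766 times the mean of the parents, log2 difference from the mid-parent level -0.38, SE 0.04, limma adjusted p = 0.000109). The smooth muscle myosin Myh11 had 3.61, 3.18 and 4.45 RPKM in B6, 1.58, 1.39 and 1.7 in 129 and 1.35, 1.29 and 1.6 in F1, and calponin (Cnn1) had 3.57, 3.71 and 3.27 RPKM in B6, 2.16, 1.43 and 1.85 in 129 and 1.19, 1.28 and 1.52 in F1. Both were 129-like. Of 30 cell cycle genes 16 (53.3%, against 14.8% of all genes) were lower, and 7 were below both (4.95% of all genes were). The number lower was 8 without F1 replicate 3, 10 with thinned reads and 4 with a higher expression filter. Cell cycle genes were low in all groups. Ccnb1, the mitotic cyclin, had 3.13, 3.07 and 3.22 RPKM in B6, 3.25, 2.84 and 2.73 in 129 and 2.17, 2.07 and 2.34 in F1. Mki67, the proliferation marker, had 0.893 ± 0.0916 RPKM in F1, against 1.32 ± 0.0681 in B6 and 1.33 ± 0.0607 in 129. Pttg1, securin, was the exception, with 13.5, 13.7 and 12.5 RPKM in B6, 1.62, 1.23 and 1.24 in 129 and 9.89, 7.79 and 8.98 in F1, between the parents and nearer B6. Of 40 lysosomal genes 9 were lower (22.5%, against 14.8% of all genes) and 4 higher (10%, against 8.35%), 2 without F1 replicate 1 and 9 by voom. Gusb, a hydrolase below both parents, had 18.1, 17.8 and 18.3 RPKM in B6, 19.6, 18.7 and 20.2 in 129 and 14.9, 15.2 and 14.5 in F1.

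Markers of precursor cells were mostly lower as well. Of 10 adipocyte progenitor markers tested, 9 were lower than the mid-parent level, against 14.8% of all genes. The summed RPKM of the markers was 338 to 419 in F1, 462 to 607 in B6 and 481 to 500 in 129. Ly6a made up most of these sums, with means of 296 RPKM in F1, 411 in B6 and 340 in 129. Icam1 was also counted in the inflammation list and Dlk1 in the imprinted list. Cd34 had 11.5 ± 0.314 RPKM in F1, against 16.8 ± 0.496 in B6 and 23.6 ± 0.65 in 129, and Pi16 had 1.39 ± 0.115 RPKM in F1, against 2.3 ± 0.251 in B6 and 2.65 ± 0.393 in 129. Of 10 smooth muscle and myofibroblast markers 6 were lower (14.8% of all genes were), with sums of 141 to 155 RPKM in F1, 182 to 200.1 in B6 and 171 to 185 in 129. All 10 are members of the contractile list above, so this count repeats part of that one. Of 8 brown and beige markers 4 were higher (8.35% of all genes were) and 1 was lower (14.8% of all genes were). Their sums were 549 to 584 RPKM in F1, 385 to 402 in B6 and 439 to 474 in 129. Cox7a1 was the largest part of these sums, with means of 338.9 RPKM in F1, 197 in B6 and 206 in 129. These 8 markers are likewise members of the brown fat list above. In bulk RNA, fewer cells of a type and less RNA per cell cannot be told apart, and the part of these markers in the lists above was not tested. Of 9 mast cell markers Tpsab1 and Cpa3 passed the filter, and Tpsb2 and Ms4a2 were listed at 0 in every library. The skeletal muscle genes Myod1, Ckm and Myh4 were also listed at 0.

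Genes that were B6-like or 129-like were so at the lower parent more often than at the higher, on the values as deposited. Of 1030 such genes on log2, F1 lay with the lower parent in 695 (67.5%), and on RPKM in 838 of 1111 (75.4%). After rescaling the shares were 53.2% and 61.6%, and by voom on recovered reads 50.1%, so the excess on log2 was small or absent once libraries were rescaled. Among the B6-like genes, Gdf10, a BMP-like growth factor (chromosome 14, 34736773 to 34748468), had 16.6, 17.7 and 15.3 RPKM in B6, 49.4, 47.5 and 49.7 in 129 and 17.7, 16.9 and 16.4 in F1. F1 overlapped B6 and was 0.348 times 129, with a log2 difference from the mid-parent level of -0.72 (limma adjusted p = 1.88e-05). Lum, the proteoglycan lumican, had 7.06, 6.27 and 7.1 RPKM in B6, 23.6, 20.9 and 19.1 in 129 and 8.35, 7.85 and 7.68 in F1. C2, a complement component, had 9.05, 5.65 and 9.16 RPKM in B6, 22.8, 21.2 and 22.99 in 129 and 8.67, 7.69 and 7.35 in F1. Both were B6-like at the lower parent. S100a8, an alarmin of myeloid cells, had 1.5 ± 0.198 RPKM in F1, against 1.4 ± 0.521 in B6 and 5.37 ± 0.588 in 129. Clec3b, which binds plasminogen, had 65.8 ± 7.43 RPKM in F1, against 57.7 ± 12.2 in B6 and 151 ± 10.99 in 129, a call lost without F1 replicate 3. Podnl1, a leucine-rich proteoglycan, was B6-like at the higher parent on log2, with 3.54, 6.21 and 3.45 RPKM in B6, 0.222, 0.371 and 0.385 in 129 and 2.98, 3.32 and 3.08 in F1, but could not be placed on RPKM. Nnt, the mitochondrial transhydrogenase in which C57BL/6J mice are known to carry a deletion, had 1.86, 1.79 and 2.11 RPKM in B6, 3.5, 3.24 and 3.28 in 129 and 1.72, 1.99 and 1.85 in F1 and was B6-like (-0.32, limma adjusted p = 0.00249).

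Among the 129-like genes, Ass1, an enzyme of arginine synthesis (chromosome 2, 31325790 to 31376190), had 17.9, 16.7 and 17.9 RPKM in B6, 5.41, 6.03 and 5.51 in 129 and 5.36, 6.23 and 5.86 in F1. F1 overlapped 129 and was 0.333 times B6 (limma adjusted p against the mid-parent level = 3.05e-05). Comp, a thrombospondin of the matrix, had 12.8, 13.9 and 14.4 RPKM in B6, 4.68, 4.84 and 5.62 in 129 and 4.64, 5.11 and 4.13 in F1. Elovl4, an elongase of very long fatty acids, had 13.3, 9.94 and 13.8 RPKM in B6, 4.86, 3.5 and 4.39 in 129 and 3.33, 2.45 and 3.21 in F1, with all F1 libraries below all 129 libraries although that contrast did not pass. Tcea3, an elongation factor of transcription, had 2.21 ± 0.526 RPKM in F1, against 5.49 ± 0.203 in B6 and 1.58 ± 0.285 in 129, and its call was lost without F1 replicate 1 and in 5 other settings. Mogat1, described above, was 129-like at the higher parent. So was the imprinted gene Peg10, with 3.67, 5.48 and 3.85 RPKM in B6, 14.1, 15.5 and 13.3 in 129 and 12.3, 12.5 and 13.9 in F1.

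Additive genes with the largest parental differences were not the same on the 2 scales. On RPKM, with clones and genes on several chromosomes left out, the largest were Tpsab1, a mast cell tryptase, and Ifi202b, an interferon-inducible DNA sensor, both close to absent in B6. Tpsab1 (chromosome 17, 25480190 to 25482507) had 0, 0 and 0.0624 RPKM in B6, 51.9, 61.1 and 54.8 in 129 and 29.9, 23.2 and 25.04 in F1, which places F1 at 46.5% of the way from B6 to 129. Ifi202b had 0.0217, 0 and 0 RPKM in B6, 24.8, 22.5 and 21.9 in 129 and 12.1, 10.8 and 9.45 in F1, at 46.7%. All F1 libraries of both lay between the parents. Cd1d2, a lipid-presenting molecule, had 0.157, 0.168 and 0.0597 RPKM in B6, 14.4, 14.6 and 14.8 in 129 and 8.1, 6.44 and 6.48 in F1, at 47.5%. Gchfr, a regulator of GTP cyclohydrolase, had 0.31, 0.332 and 0.118 RPKM in B6, 14.03, 14.5 and 14.3 in 129 and 8.17, 6.31 and 6.87 in F1, at 48.9%. Abundant metabolic genes did the same. Apoe, the apolipoprotein, had 118, 109 and 129.5 RPKM in B6, 1096, 1092 and 1179.7 in 129 and 684, 645 and 596 in F1, or 1.03 times the mean of the parents. Ucp2, an uncoupling protein relative, had 19.3, 22.6 and 18.7 RPKM in B6, 182, 189 and 182 in 129 and 109, 107 and 107 in F1, or 1.05 times. On log2 all 6 were called higher than the mid-parent level. Reads of Ifi202b and Cd1d2 can be shared with close relatives, so their sizes are uncertain.

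On log2 the additive genes farthest apart were Dynlt1b, Trim30d, Trim12a, Col28a1, Rps15a-ps6 and Aqp11. Aqp11, a water channel, had 3.3, 2.85 and 2.92 RPKM in B6, 17.9, 19.1 and 19.6 in 129 and 8.69, 7.22 and 7.84 in F1, at -0.01 from the mid-parent level but only 0.724 times the arithmetic mean. Col28a1, a collagen, had 51.9, 46.5 and 46.6 RPKM in B6, 7.9, 8.1 and 8.13 in 129 and 20.4, 23.1 and 21.7 in F1 (0.771 times the arithmetic mean), and it passed as higher after rescaling (0.14). Trim30d, Trim12a and Rps15a-ps6 passed as higher with a pseudocount of 0.1 (1.24, 1.34 and 0.82) and by voom (3.32, 2.50 and 1.00). Dynlt1b, Trim30d and Trim12a belong to families of close copies and Rps15a-ps6 is a ribosomal pseudogene, so their counts are uncertain.

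To describe how far F1 lay along the parental difference, the 279 genes (2.42%) with parents at least 2-fold apart were placed between B6 (0%) and 129 (100%) on RPKM. The median position was 51.7% ± 1.48 (SD over the 3 F1 libraries), with 165 of the 279 between 25% and 75%. The histogram by direction shows that this middle value joins 2 unlike distributions. The 148 genes higher in 129 had a median of 37.4% ± 3.30 and the 131 lower in 129 one of 65.8% ± 0.230, so that in both F1 lay nearer the lower parent. Counted from the lower parent, the height of F1 was 35.7% ± 1.57 of the difference on RPKM, with 208 of 279 nearer the lower parent. The geometric mean of the parents would lie at a median of 34.2%. On log2 the height was 48.8% ± 2.34, with 142 of 279 nearer the lower parent. For the 50 genes at least 4-fold apart, the heights were 41.7% ± 3.36 on RPKM and 62.9% ± 2.91 on log2, so these lay below the arithmetic and above the geometric mean. Of them 28 were called higher and 9 lower on log2, but 6 higher and 16 lower on RPKM. Positions are descriptions, since the parental values that chose the genes also set the scale.

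**Figure D4:**
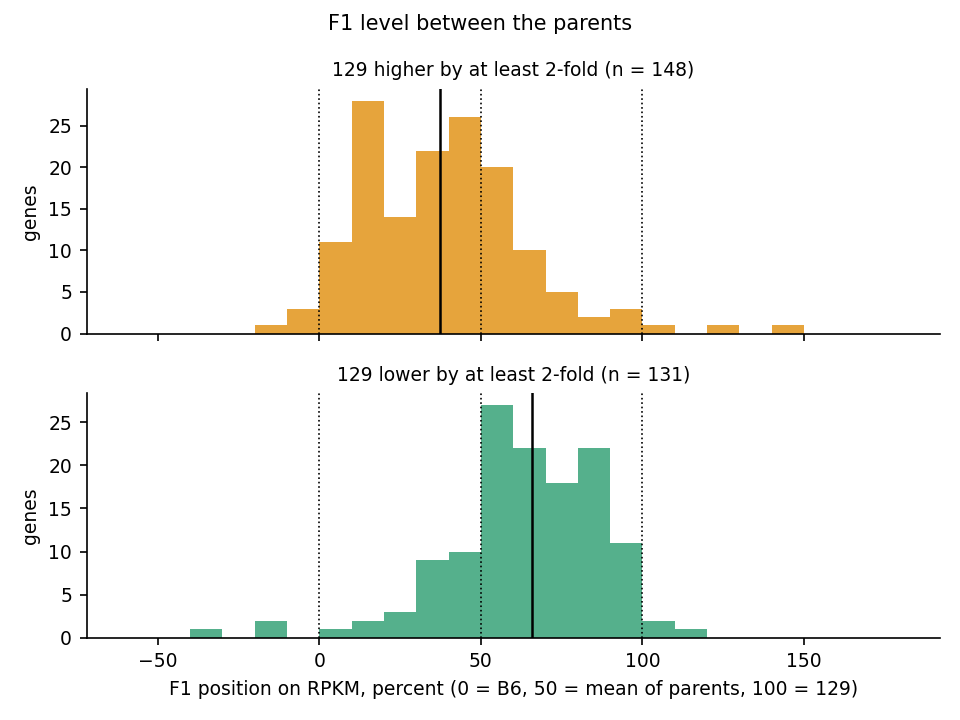
Number of genes by the position of the F1 mean on RPKM, in percent from B6 (0) to 129 (100), for the 148 genes at least 2-fold higher in 129 and the 131 at least 2-fold lower. The solid lines are the medians over the F1 libraries (37.4% and 65.8%), and each lies on the side of the lower parent.

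Genes of the X chromosome were seldom additive. A male has 1 X chromosome, from its mother, and the labels give neither sex nor mother. All 9 libraries expressed Y-linked genes, such as Ddx3y (31.9, 31.5 and 26.2 RPKM in B6, 30.3, 27.8 and 26.6 in 129 and 31.8, 30.7 and 35.2 in F1), and Xist, the RNA of the inactive X in females, was at most 0.0294 RPKM. Of 348 X genes tested, 112 differed between the parents, and of these 2 (1.79%) were additive, 23 (20.5%) B6-like and 18 (16.1%) 129-like. For 4217 such genes on autosomes the shares were 12.4%, 9.84% and 13.6%. No test of this difference in shares was made. Of the X genes, 73 (21.0%) were lower than the mid-parent level and 27 (7.76%) higher, against 14.7% and 8.36% on autosomes.

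The 5 X genes with parents at least 2-fold apart, chosen after their values were seen, were Gabra3, Heph, Gpr165, 3110007F17Rik and Map7d2. F1 lay close to B6 in 4 of them. Heph, the copper oxidase hephaestin that helps export iron, had 3.75 ± 0.192 RPKM in B6, 18.6 ± 0.59 in 129 and 6.17 ± 0.366 in F1, a position of 16.3% from B6 to 129. Gabra3, a GABA receptor subunit, had 0.49 ± 0.124 RPKM in B6, 2.02 ± 0.264 in 129 and 0.548 ± 0.0429 in F1, a position of 3.81%. The orphan receptor Gpr165 (0.251 ± 0.0256 RPKM in B6, 2.35 ± 0.231 in 129 and 0.512 ± 0.142 in F1) lay at 12.5%. The clone 3110007F17Rik was listed at 0 in every 129 library and had 1.09 ± 0.457 RPKM in B6 and 1.26 ± 0.168 in F1. Map7d2, a microtubule-binding protein, went the other way, with 18.7 ± 3.27 RPKM in B6, 6.38 ± 0.364 in 129 and 9.26 ± 0.93 in F1 and a position of 76.7%.

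Imprinted genes can be read from the copy of 1 parent alone, and the strain origin of such RNA would depend on the cross. Whether the listed genes were so read in these cells was not tested. Of 22 tested, 10 (45.5%, against 14.8% of all genes) were lower than the mid-parent level and 1 higher, 6 lower without F1 replicate 1 or 3 each. Dcn, among the lower genes, was also counted in the matrix list. Plagl1, a zinc finger factor, had 4.81, 4.43 and 4.4 RPKM in B6, 2.31, 2.16 and 2.18 in 129 and 1.65, 1.85 and 1.73 in F1 and was below both (0.516 times the mean of the parents, log2 difference from the mid-parent level -0.62, SE 0.05, limma adjusted p = 3.67e-05). Peg10, the 1 higher gene, was 129-like. Ndn, which encodes necdin, had 17.8, 17.1 and 16.8 RPKM in B6, 21.5, 22.3 and 22.02 in 129 and 16.6, 15.3 and 14.1 in F1 and was B6-like. Mest, known to rise with fat growth, had 3.64 ± 0.10 RPKM in F1, against 6.4 ± 0.736 in B6 and 1.83 ± 0.221 in 129 and was additive. The noncoding RNA H19 had 7.46 ± 1.07 RPKM in F1, against 12.5 ± 3.22 in B6 and 9.55 ± 0.43 in 129, and Rian had 17.9 ± 0.873 RPKM in F1, against 23.4 ± 2.11 in B6 and 22.05 ± 1.41 in 129. Both were lower. Which parent gave which copy cannot be told apart here.

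Several lists had few members called, where 8.35% of all genes were higher and 14.8% lower. Of 19 adipogenic transcription factors 2 (10.5%) were higher and 2 lower. Of 34 proteasome subunits 1 (2.94%) was higher and 1 lower, both below the share of all genes. Of 33 peroxisomal genes 3 (9.09%) were higher, 6 after rescaling and 7 by voom, and 2 (6.06%) lower. Of 19 immediate early genes 3 (15.8%) were higher, 8 without B6 replicate 2 and by voom, and 1 (5.26%) lower. Phyh, which starts the breakdown of phytanic acid in peroxisomes, was the member with the smallest p of the peroxisomal list, with 59.3, 64.97 and 58.5 RPKM in B6, 64.9, 65.2 and 66.6 in 129 and 92.3, 91.7 and 92.9 in F1 (1.46 times the mean of the parents, log2 difference from the mid-parent level 0.54, SE 0.04, limma adjusted p = 2.93e-05). In branched-chain amino acid breakdown 7 of 22 (31.8%) were higher, by small steps. Pcca, a subunit of propionyl-CoA carboxylase, had 118 ± 3.97 RPKM in F1, against 87.3 ± 1.55 in B6 and 93.7 ± 2.38 in 129, above both. Of 20 genes of TGF-beta and BMP signalling 7 were lower and 3 higher. Tgfbi, a matrix protein, had 2.15, 2.62 and 2.32 RPKM in B6, 2.87, 2.32 and 2.9 in 129 and 1.19, 1.38 and 1.11 in F1, below both. Cytosolic ribosomal proteins had 21 of 77 lower (27.3%), but 6 after rescaling and 2 to 12 without B6 replicate 1 or 3, 129 replicate 1 or 3, or F1 replicate 3. The bar chart of all 30 lists sets these shares beside those of all genes. Members named beyond the 4 with the smallest p of a list were chosen after their values were seen.

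**Figure D5:**
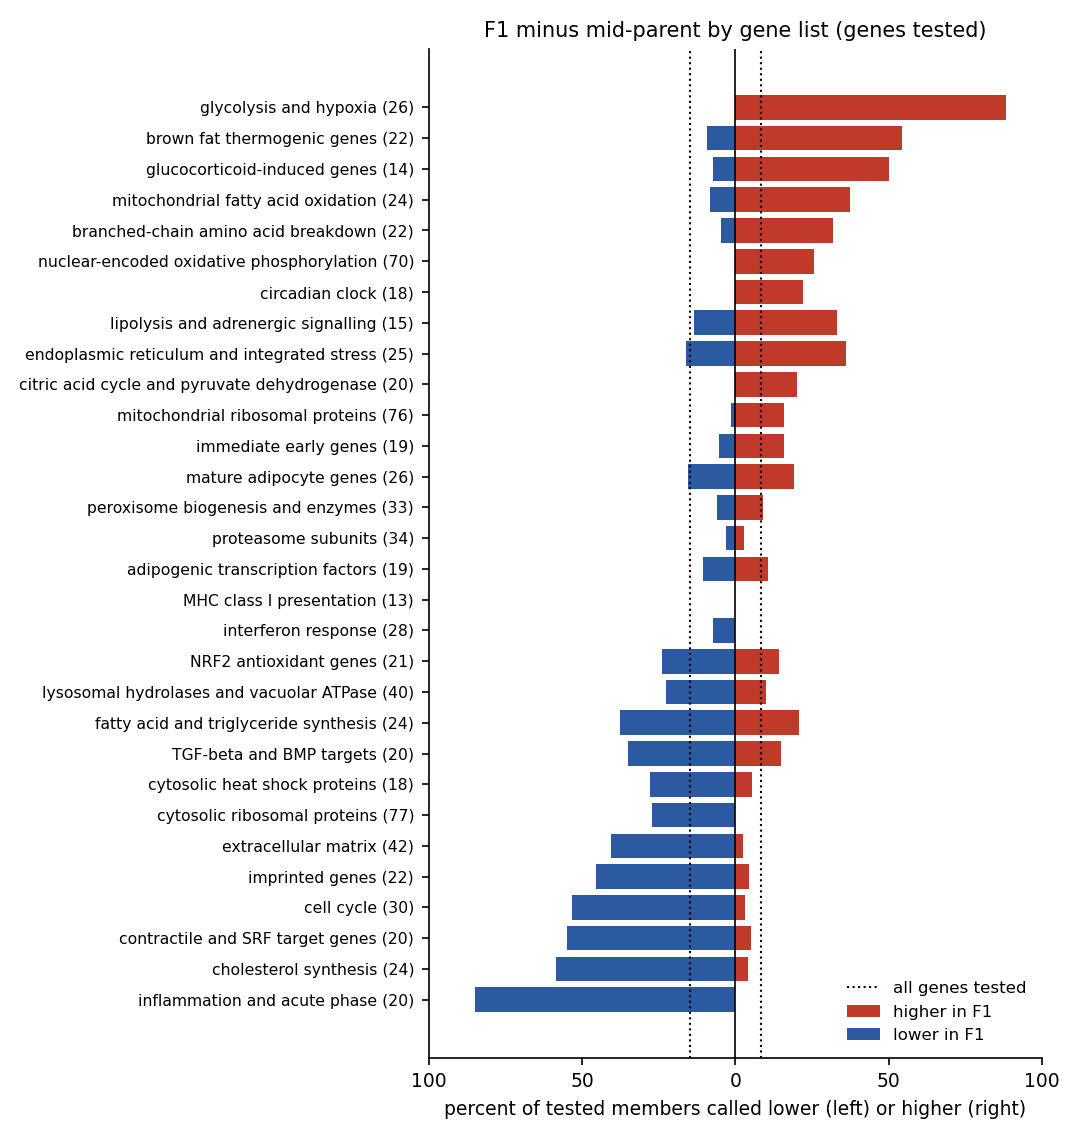
Percent of tested members of each of 30 gene lists (number tested in brackets) called lower (left) or higher (right) in F1 than the mid-parent level on log2, with dotted lines at the shares of all genes (14.8% lower, 8.35% higher). Glycolysis and hypoxia genes reach 88.5% higher and inflammation genes 85.0% lower.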

How the data were processed

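RPKM values of 9 libraries (3 each of B6, 129 and F1) were deposited by the authors. Per the labels' protocols, poly(A) RNA was made into stranded libraries, and per the submitters' processing notes STAR and the genome build mm9 were used. The read counter is not given in the sources used here, so genes with close copies or pseudogenes (Gapdh, Orm1, ribosomal proteins) and overlapping genes are uncertain. Of 24015 rows, 4 shared a symbol with another, and the row with the highest mean was kept, leaving 24013 symbols.

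Values were tested as log2(RPKM + 1) and as RPKM divided by the gene's mean, with limma 3.58.1 in R 4.3.3 over all 9 libraries and Benjamini-Hochberg adjustment at 0.05 over 11542 genes. The mid-parent contrast is F1 minus the mean of both parental group means. Low values fell on whole multiples of 1 read (at least 99.98% within 0.1 read), which gave the read numbers for thinning to 19130023 reads and for limma's voom. Tests were checked on simulated data.

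Members, gene lists and named genes were chosen with earlier results of these data known. Named were the 8 genes of each class above or below both parents that lay farthest from the nearer parent, the 6 genes of each other class with the largest parental difference (clones, predicted genes, small RNAs, date-like symbols and genes on several chromosomes left out), a set of beige fat, NFI and Y-linked genes, and the 4 called members of each list with the smallest p. Other list members were named after their values were seen. Some genes are not reported here. Alternatives were median-of-ratios scaling, thinning, voom, sample weights, a replicate block, other filters, a pseudocount of 0.1, a threshold of 0.01 and leaving out each library. Promoter sequences are from RefSeq (GRCm38.p6). Figures were drawn with matplotlib 3.10.9.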

Additional observations from a re-analysis of the deposited data

How the results depend on the processing

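On log2, the number of genes above both parents (325) was 524 after median-of-ratios scaling and 645 by voom, which also called 1811 genes higher than the mid-parent level in place of 964. Sample weights raised the 129-like genes to 995 on log2 and 1030 on RPKM. On RPKM, median-of-ratios scaling gave 1348 higher genes and 573 above both. At a threshold of 0.01 the classes above both, below both, additive, B6-like and 129-like held 132, 222, 286, 229 and 305 genes on log2 and 161, 185, 271, 246 and 307 on RPKM. The median position of F1 between the parents (51.7%) was 49.9% after median-of-ratios scaling and 47.5% for parents at least 4-fold apart. The cause of these shifts was not tested. Leaving out 1 library at a time gave 642 (without F1 replicate 1) to 1084 higher genes and 1117 (without F1 replicate 3) to 1964 lower genes on log2, 210 (without 129 replicate 1) to 379 above both and 380 (without F1 replicate 3) to 625 below both. On RPKM it gave 599 to 1001 higher genes, 1116 (without F1 replicate 3) to 2072 lower genes and 288 (without F1 replicate 3) to 571 below both, with 1185 lower and 307 below both without F1 replicate 1. The position moved between 50.1% and 53.7%. Of 147 named genes past the threshold, 129 stayed past it under every alternative run for them, 18 did not under at least 1, and none changed direction. Once group means were removed, correlations of same-numbered libraries of different groups ran from -0.192 to 0.215. Those of differently numbered libraries ran from -0.203 to 0.231, so the numbers were not taken to pair libraries. With the replicate block 914 genes were higher and 1673 lower on log2 (851 and 1728 on RPKM), and the 5 classes in the above order held 317, 569, 503, 433 and 566 genes on log2. Depth limits calls on scarce transcripts, and with reads thinned to equal depth 10 in place of 16 cell cycle genes were lower.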
